A study of Homo sapiens with 8 samples.

Results

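The genes described here are the metallothioneins of MDA-MB-231 cells and 2 genes of the zinc response, and they were chosen by name. They are MT2A, MT1X, MT1E, MT1F, MT1G, MT1M and MT1A, the transcription factor gene MTF1 and the zinc exporter gene SLC30A1. All 9 were found among the 60646 genes of the count table, and 5 of them had enough counts to be tested among 19877 genes. MDA-MB-231 is a human cell line long in use as a model of triple-negative breast cancer. RNA was sequenced from 4 wild-type samples and 4 knockout samples. The knockout (DOT1L/+ KO) came from a guide RNA aimed at exon 1 of DOT1L, which encodes the H3K79 methyltransferase. Both groups were grown in serum-supplemented DMEM, plated alike and collected the next day, with no metal or other agent named in the labels. How many alleles carry an edit, whether the knockout is 1 clone, and whether samples of a group were separate cultures are points the labels leave unsaid, so the p-values reflect variation among these samples that may be technical only.

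Metallothioneins are small cytosolic proteins whose many cysteines bind zinc and copper, and also cadmium. Zinc that enters the cytosol activates MTF-1, the zinc finger factor encoded by MTF1, which binds metal response elements in the promoters of metallothionein genes and of SLC30A1. Zinc transporters of the SLC30 family move zinc out of the cytosol and those of the SLC39 family move it in. Glucocorticoids and oxidants also raise metallothionein transcripts in many cells.

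The coding sequences of the 3 most abundant metallothioneins, MT2A, MT1E and MT1X, are shown because they are near copies of each other, which bears on how far reads can be told apart. They come from GENCODE 29 transcripts on GRCh38, read 5′ to 3′ from start to stop codon, and each has 186 bases and 61 codons before the stop. Capitals mark the in-frame cysteine codons, 20 in each of these 3 genes.
MT2A: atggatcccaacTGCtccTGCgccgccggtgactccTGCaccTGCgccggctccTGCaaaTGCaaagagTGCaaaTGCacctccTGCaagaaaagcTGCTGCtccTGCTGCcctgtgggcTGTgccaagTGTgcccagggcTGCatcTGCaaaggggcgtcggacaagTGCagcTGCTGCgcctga
MT1E: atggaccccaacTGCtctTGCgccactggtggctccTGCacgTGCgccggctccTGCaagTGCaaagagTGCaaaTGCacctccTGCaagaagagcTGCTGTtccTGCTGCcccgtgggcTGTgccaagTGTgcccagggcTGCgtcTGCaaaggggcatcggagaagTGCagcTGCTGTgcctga
MT1X: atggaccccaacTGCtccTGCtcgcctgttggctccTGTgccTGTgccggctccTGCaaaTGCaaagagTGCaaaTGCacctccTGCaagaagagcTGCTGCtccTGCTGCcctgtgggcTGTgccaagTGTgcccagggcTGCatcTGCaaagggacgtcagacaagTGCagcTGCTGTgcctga

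MT2A (ENSG00000125148) spans 56608199 to 56609497 on the plus strand of chromosome 16, MT1E (ENSG00000169715) 56625475 to 56627112, MT1A (ENSG00000205362) 56638666 to 56640087 and MT1X (ENSG00000187193) 56682424 to 56684196, in GRCh38. The coding sequence of MT2A was identical to that of MT1E at 92.5% of bases and to that of MT1X at 92.5%, and MT1E was identical to MT1X at 90.9%. Over whole transcripts the genes were more distinct. Of all windows of 50 bases in the transcripts of MT2A, 3.02% also occurred in a transcript of another gene, against 7.1% for MT1E, 5.76% for MT1A and 18.3% for MT1X. The windows of MT1X were shared in part with ENSG00000259827, an annotated transcript that overlaps it. How multi-mapping reads were counted is not given in the sources used here, and levels of these genes are uncertain to the extent that such reads were shared. The processed pseudogene MT2P1, a copy of MT2A on chromosome 4, held 1.19% as many counts as MT2A.

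The promoters of MT2A and MT1X are shown because both genes are described below and because metal response elements can be read in them. Each window holds the 250 bases before the RefSeq start on GRCh38.p14, and capitals mark matches to the core of the metal response element. For both MT2A and MT1X this start lies inside the span that GENCODE gives the gene, so the end of each window does too. The core was searched as TGCACNC and TGCGCNC on both strands.
MT2A promoter, chr16:56608334-56608583, plus strand: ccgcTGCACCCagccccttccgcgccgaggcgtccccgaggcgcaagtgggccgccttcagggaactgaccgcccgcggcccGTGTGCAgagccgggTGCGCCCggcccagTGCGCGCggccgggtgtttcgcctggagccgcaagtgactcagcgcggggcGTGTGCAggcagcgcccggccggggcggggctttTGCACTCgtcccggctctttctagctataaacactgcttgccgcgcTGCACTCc
MT1X promoter, chr16:56682220-56682469, plus strand: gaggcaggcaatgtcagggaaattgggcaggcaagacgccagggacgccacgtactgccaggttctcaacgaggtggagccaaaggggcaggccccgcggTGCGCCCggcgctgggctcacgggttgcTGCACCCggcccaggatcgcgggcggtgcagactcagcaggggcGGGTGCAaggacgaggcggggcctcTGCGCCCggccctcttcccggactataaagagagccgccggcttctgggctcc
The MT2A window held 7 matches, 5 on its own strand and 2 on the other, and the MT1X window held 4, of which 3 were on its own strand. The windows of SLC30A1 and MTF1 held 1 and 0. Among other family genes, the windows of MT1H, MT1B and MT4 held 8, 3 and 3, and MT1H and MT4 had 0 counts in every library. Of 35116 promoter windows of this length, 24.8% held at least 1 match and 0.37% held at least 4. A match describes letters and does not show that a factor binds there.

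Total counts ran from 40103408 to 50031412 per sample, so that 1 count stood for 0.0198 to 0.0250 CPM (the count of a gene relative to the library total after trimmed-mean scaling). DOT1L itself was lower in the knockout, at 84.7 ± 5.90 CPM against 109 ± 8.52 CPM in wild-type (SD, n = 4 each, adjusted p = 2.83e-05), and all 4 knockout samples lay below all wild-type samples. Its counts take in transcripts of any edited allele. Among all genes tested, the groups of 43.4% did not overlap in one direction or the other, and 23.6% were called lower. Markers of the line were present, with VIM at 2938 and 3869 CPM, AXL at 1237 and 1002, CD44 at 793 and 774 and EGFR at 637 and 487 CPM in wild-type and knockout. Of these VIM rose, EGFR and AXL fell and CD44 did not pass. PGR had 5 and 18 counts and CDH1 1 and 41 counts over the 4 samples of each group. ESR1, also near 0, was at 0.262 and 0.538 CPM. Of 5 marker genes of other cell types, PTPRC had 9 and 27 counts, ALB 1 and 3 and ADIPOQ none, and CDH5 and PECAM1 stood under 1 CPM in both groups.

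The 2 metallothioneins with the highest levels per kilobase moved in opposite directions in the knockout. MT2A rose by 1.28-fold, MT1E fell to 0.695 of its wild-type level, and MT1X did not pass the test. MT1A and MT1F, both near the limit of detection in wild-type, were almost without counts in the knockout, and MT1G and MT1M were not detected beyond 2 counts in either group. MTF1 and SLC30A1 did not pass the test. Of the 5 members tested, 1 rose, 1 fell and 3 did not pass. Among all 19877 genes tested, 47.6% passed (adjusted p below 0.05 in edgeR's quasi-likelihood test), 23.9% higher and 23.6% lower, against 2 of the 5 members. The median log2 change of the 5 was 0.10, against 0.00 over all genes tested. The count of members called and its split moved with the scaling, to 4 of 5. With library totals alone 3 members were higher and 1 was lower (29.7% and 18.9% of all genes, 48.5% in all), and with upper-quartile scaling likewise (30.3% and 18.6%, 48.9% in all). Among genes with a mean log2 CPM of 1 or more, 56.3% passed, 28.1% higher and 28.2% lower, and of the members in that fit 2 were higher and 1 was lower.

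**Figure D1:**
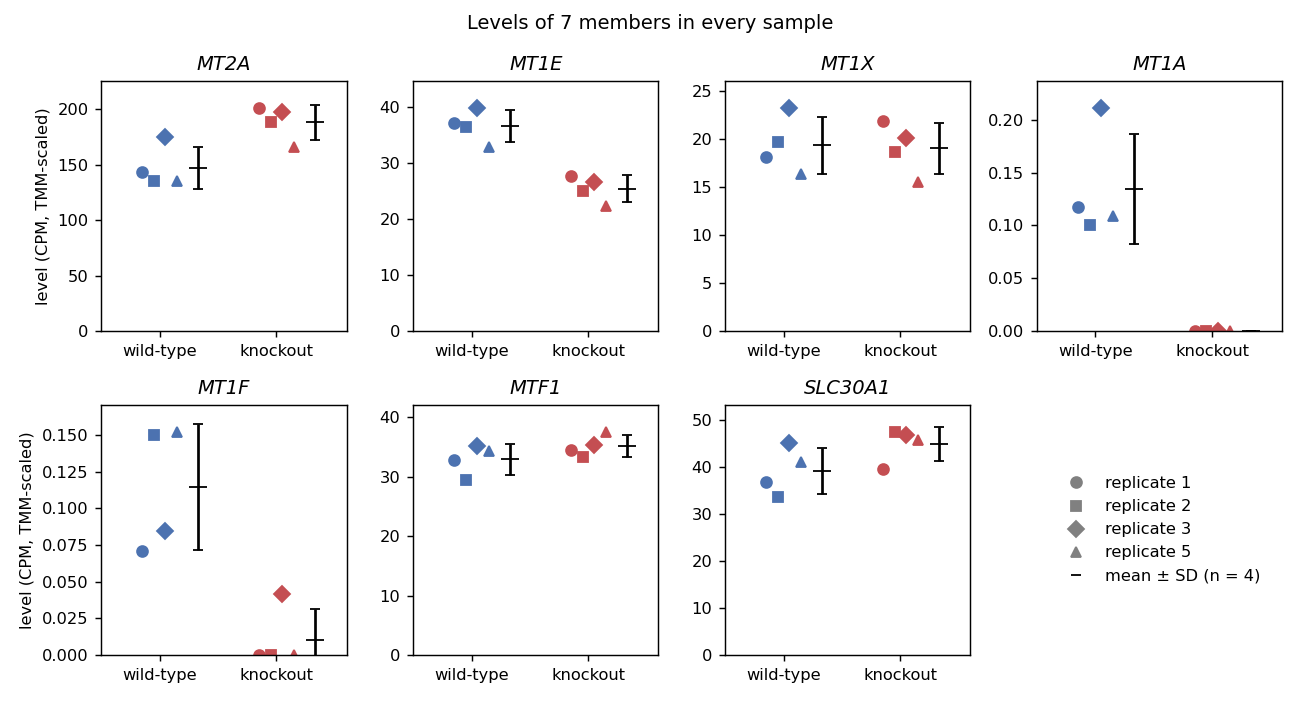
Level of 7 members in each sample, in CPM after trimmed-mean scaling, with a separate vertical axis from 0 for each gene. Points are samples, shapes are replicate numbers, and black marks give the mean ± SD of 4 samples. MT1E is lower in all 4 knockout samples than in any wild-type sample, MT2A overlaps between groups through wild-type replicate 3 and knockout replicate 5, and MT1A is at 0 in every knockout sample.

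MT2A, the metallothionein found in most tissues, was the highest member, per kilobase too. Its levels in wild-type replicates 1, 2, 3 and 5 were 143.0, 135.5, 175.0 and 135.4 CPM. In knockout replicates 1, 2, 3 and 5 they were 201.1, 188.1, 197.8 and 166.2 CPM. Wild-type replicate 3 was the highest of its group and lay above knockout replicate 5, the lowest of its own, so the groups overlapped by those 2 samples, while the knockout was higher within each of the 4 pairs of one replicate number. The wild-type mean was 147 ± 18.9 CPM and the knockout mean 188 ± 15.7 CPM (SD, n = 4 each). The log2 change was 0.35 (SE 0.09, adjusted p = 0.00488). Without wild-type replicate 3 the change was 0.45 (adjusted p = 3.19e-06).

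MT1E, a member of the MT1 group that lies next in the cluster among coding genes, went the other way. Its wild-type levels were 37.18, 36.54, 39.91 and 32.86 CPM in replicates 1, 2, 3 and 5. In the knockout the levels were 27.76, 25.06, 26.71 and 22.29 CPM. All 4 knockout samples lay below all 4 wild-type samples, as the groups of 43.4% of tested genes did not overlap in one direction or the other. From a wild-type mean of 36.6 ± 2.90 CPM it fell to 25.5 ± 2.38 CPM (n = 4 each), by 0.53 on the log2 scale (SE 0.07, adjusted p = 3.08e-06).

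MT1X, another widely expressed MT1 gene, varied within both groups. Its levels were 18.06, 19.65, 23.21 and 16.33 CPM in wild-type replicates 1, 2, 3 and 5, and 21.86, 18.62, 20.03 and 15.54 CPM in the knockout. The highest and the lowest of the 8 values lay in different groups and the others were interleaved. Group means of 19.3 ± 2.93 CPM and 19.0 ± 2.67 CPM (n = 4 each) gave a log2 difference of -0.02 (SE 0.12, adjusted p = 0.891). The sign of this value was positive with upper-quartile scaling and with library totals alone.

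Ratios within a sample do not depend on the scaling between libraries, and the groups did not overlap in any of the 3 ratios formed. There were 3.85, 3.71, 4.39 and 4.12 counts of MT2A for each count of MT1E in wild-type replicates 1, 2, 3 and 5. In the knockout there were 7.25, 7.51, 7.40 and 7.46. Every knockout ratio was above every wild-type ratio, with means of 4.01 ± 0.300 and 7.40 ± 0.113 (n = 4 each). Counts of MT2A per count of MT1X had means of 7.66 ± 0.594 and 9.97 ± 0.621, and counts of MT1X per count of MT1E had means of 0.526 ± 0.0435 and 0.744 ± 0.0372. These ratios show unequal change between the genes and do not say which of them moved. Of single tested genes 43.4% had groups that did not overlap, and ratios of other gene pairs were not counted. The 3 ratios are not independent, since any 2 of them give the other.

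**Figure D2:**
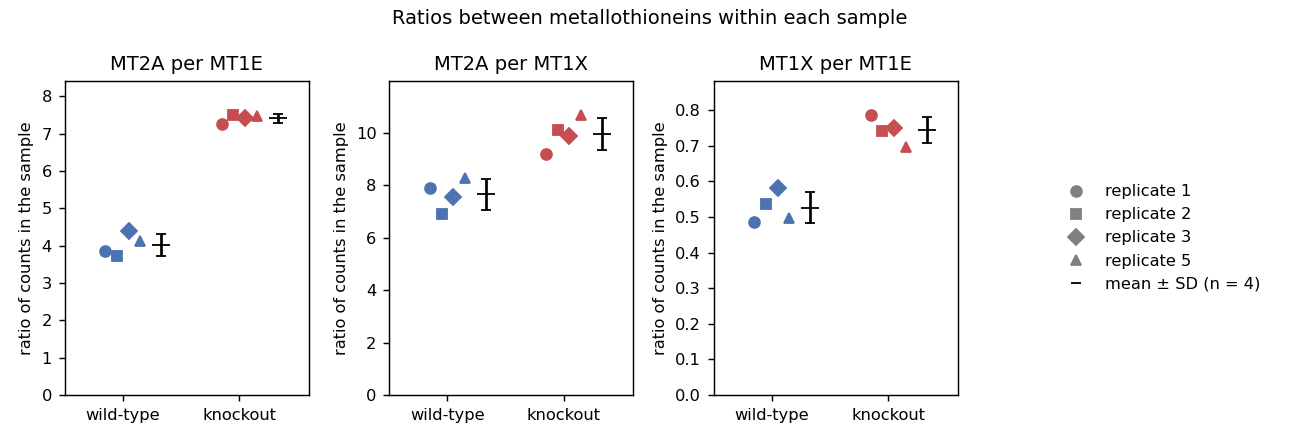
Ratio of the counts of 2 metallothioneins within each sample, on linear axes from 0, with points for samples, shapes for replicate numbers and black marks for the mean ± SD of 4 samples. The knockout samples lie above the wild-type samples in all 3 ratios, and the 4 knockout values of MT2A per MT1E lie between 7.25 and 7.51.

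The family as a whole was dominated by these 3 genes, which held 98.6% of metallothionein counts in wild-type and 98.8% in the knockout on average. MT2A alone held 71.4 ± 1.37% of them in wild-type and 79.9 ± 0.521% in the knockout (SD, n = 4 each). The share of MT1E was 16.6% to 18.8% in the wild-type samples and 10.7% to 10.9% in the knockout samples. Summed over all 21 metallothionein genes and pseudogenes of the table, the level was 200.9, 194.9, 241.0 and 187.6 CPM in wild-type replicates 1, 2, 3 and 5. The knockout sums were 253.7, 234.8, 247.7 and 206.5 CPM. The means were 206 ± 23.9 CPM and 236 ± 21.0 CPM, a log2 ratio of 0.19. The groups overlapped because wild-type replicate 3 lay above knockout replicates 2 and 5, while the knockout sum was higher within each of the 4 pairs of samples that share a replicate number. In bulk RNA, fewer cells that express a gene and less RNA per cell cannot be told apart.

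The low members were counted rather than tested, since they did not pass the filter on low counts. MT1A had 5, 4, 10 and 5 counts in wild-type replicates 1, 2, 3 and 5, and 0 in each knockout library. Against a floor of 3 counts over the knockout group, the 24 wild-type counts gave a ratio of 8.88 after scaling. That ratio takes the wild-type counts as exact and is not a lower limit that covers their counting error. MT1F had 3, 6, 4 and 7 counts in wild-type replicates 1, 2, 3 and 5, and 0, 0, 2 and 0 in the knockout, a ratio of 11.1 (95% exact counting interval 2.70 to 97.9). No knockout value reached a wild-type value in either gene, though for MT1F the nearest were 2 and 3 counts. Among tested genes the groups of 43.4% did not overlap, and no such share was taken for genes with so few counts.

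When genes with at least 10 counts over all samples were let into the fit, MT1A and MT1F were both called lower, with adjusted p = 0.000189 and 0.00588 in edgeR, where 38.0% of genes passed, 19.5% higher and 18.5% lower. DESeq2 gave adjusted p = 0.000279 and 0.0237, with 33.3% of genes called, 16.7% higher and 16.6% lower. In both fits 1 member was higher and 3 were lower. MT1A and MT1F entered these fits only through their wild-type counts. Their calls therefore restate the counts above and are no further support. MT1G had 1, 1, 0 and 0 counts in wild-type and 0 in the knockout, and MT1M had 0 in all 8 libraries, which allows up to 0.0171 CPM in wild-type and 0.0154 CPM in the knockout. The interval and the floors speak for counting error alone, because reads that carry no molecular identifier may be copies of 1 molecule.

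Among the other genes of the family, MT3, MT4 and MT1H had 0 counts in every library. MT1B had 2 counts in wild-type and 13 in the knockout, summed over samples, and the transcribed pseudogene MT1JP had 16 and 7. MT1P3, a pseudogene on chromosome 20 that shares 54.7% of its windows with other genes, fell from 0.611 ± 0.0778 to 0.390 ± 0.0872 CPM (n = 4 each, adjusted p = 0.0416), a call lost in 9 of 14 alternative fits. MT2P1 stood at 1.77 ± 0.183 and 2.23 ± 0.287 CPM (adjusted p = 0.0687). Of the 5 family genes tested, 1 rose, 2 fell (MT1E and MT1P3) and 2 did not pass, beside 23.9% higher and 23.6% lower of all genes tested. MT1E is among the genes that share windows with MT1P3, which held 1.61% as many counts as MT1E. Reads of MT1E may therefore be counted at MT1P3, and the 2 falls may not be separate. MT1XP1 (33 and 30 counts), MT1P1 (2 and 7) and MT1L (0 and 1) did not pass the filter on low counts, and MT1HL1, MT1DP, MT1CP and MT1IP had none.

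MTF1 (ENSG00000188786, chromosome 1, 37809567 to 37859620, minus strand) stood at 32.80, 29.43, 35.27 and 34.28 CPM in wild-type replicates 1, 2, 3 and 5. Its knockout levels were 34.57, 33.30, 35.36 and 37.63 CPM. Only knockout replicates 3 and 5 lay above all wild-type samples. Means of 32.9 ± 2.55 and 35.2 ± 1.82 CPM (n = 4 each) gave a log2 difference of 0.10 (SE 0.06, adjusted p = 0.205). It passed with library totals alone (adjusted p = 0.0306) and with upper-quartile scaling (adjusted p = 0.031), and over all alternatives the adjusted p ran from 0.0306 to 0.608.

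SLC30A1 (ENSG00000170385, chromosome 1, 211571568 to 211578742, minus strand), which exports zinc at the plasma membrane, stood at 36.76, 33.69, 45.07 and 40.99 CPM in wild-type replicates 1, 2, 3 and 5. In the knockout it stood at 39.49, 47.53, 46.78 and 45.83 CPM. Knockout replicates 2, 3 and 5 lay above all wild-type samples and replicate 1 lay among them. Means of 39.1 ± 4.97 and 44.9 ± 3.68 CPM (n = 4 each) gave a log2 difference of 0.20 (SE 0.08, adjusted p = 0.0671). With the replicate number as a block the gene passed (log2 change 0.20, adjusted p = 0.00814), where 3 of the 5 members and 52.7% of all genes passed, 26.6% higher and 26.1% lower. It also passed without wild-type replicate 3 (adjusted p = 0.00474) or knockout replicate 1 (0.0165) and with library totals alone (0.00949). Over all alternatives the adjusted p ran from 0.00474 to 0.307.

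Levels of different genes were compared per kilobase of merged exons. In wild-type the order was MT2A (113 ± 14.5 CPM per kilobase), MT1E (34.8 ± 2.76), MT1X (10.9 ± 1.65), SLC30A1 (7.15 ± 0.907), MTF1 (4.11 ± 0.318), MT1A (0.340 ± 0.130) and MT1F (0.0606 ± 0.0227). No 2 neighbours in that order overlapped over the 4 samples. In the knockout the first 5 kept this order without overlap, with MT2A at 145 ± 12.1, MT1E at 24.2 ± 2.27 and MT1X at 10.7 ± 1.51 CPM per kilobase.

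The replicates also differed among themselves. Wild-type replicate 3 was the highest wild-type sample for 6 of the 7 members other than MT1G and MT1M, all except MT1F. That library also stood apart over genes in general. Its chi-square per degree of freedom against wild-type replicates 1, 2 and 5 was 12.4, 14.9 and 18.4, and the other wild-type pairs had 3.98 to 8.54. Its scaling factor of 0.946 was the lowest of all samples, so its high values are not particular to the members. Knockout replicate 5 was the lowest knockout sample for MT2A, MT1E and MT1X. After group means were subtracted, the log2 levels of MT1X and MT1E followed those of MT2A over the 8 samples (Pearson r 0.892 and 0.861, Spearman rho 0.929 and 0.905), and MT1E followed MT1X (r 0.954, rho 0.905), while MTF1 and SLC30A1 followed MT2A less closely (r 0.205 and 0.373, rho 0.024 and 0.286). Between replicates of a group MT2A and MT1E thus mostly varied together, and between the groups they differed in opposite directions. Their deviations differed in sign in wild-type replicate 1 (-0.033 for MT2A and 0.025 for MT1E) and in knockout replicate 2 (0.002 and -0.018). How many other genes follow MT2A as closely was not counted. All genes of a sample share its library preparation and depth, so such values can reflect the library as a whole, and no test was made of them.

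By the same measure, out of 13212 genes, those outside the family most like MT2A were RRP36 (r 0.993), AMIGO2 (0.987), GNPDA1 (0.987), GTF2F1 (0.986) and PPDPF (0.983). Of these GNPDA1 fell between groups (log2 change -0.24, adjusted p = 0.00504) and the others did not pass. Those most like MT1E were GADD45B (0.990), CYB5B (0.987), F3 (0.983), ANGPTL4 (0.982) and SH3BP5L (0.981), of which CYB5B fell (log2 change -0.56, adjusted p = 4.51e-09), F3, ANGPTL4 and SH3BP5L rose (0.25, 0.80 and 0.35) and GADD45B did not pass. They are the highest of many correlations over 8 samples and are given as a description.

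Most coding genes tested around the cluster were lower in the knockout. Of 21 protein-coding genes tested within 1 Mb of the metallothioneins, 14 fell, 1 rose and 6 did not pass, which is 66.7% lower against 29.2% of all protein-coding genes tested. Of the 27 genes of any type tested there 14 fell, or 51.9% against 23.6% of all genes tested. The median log2 change was -0.24 for the coding genes and -0.26 for the genes of any type, against 0.00 over all genes tested. The nearest coding genes on one side were BBS2, a gene of the primary cilium, which rose by 0.35 (adjusted p = 0.00111), OGFOD1, which fell (log2 change -0.38, adjusted p = 1.81e-06), and NUDT21, a subunit of a polyadenylation factor, which fell from 295 ± 10.1 to 219 ± 9.14 CPM. On the other side NUP93, a nuclear pore protein, fell (-0.22, adjusted p = 0.00188), as did HERPUD1 (-0.48), of the endoplasmic reticulum stress response, and NLRC5 (-0.78), an activator of MHC class I genes.

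**Figure D3:**
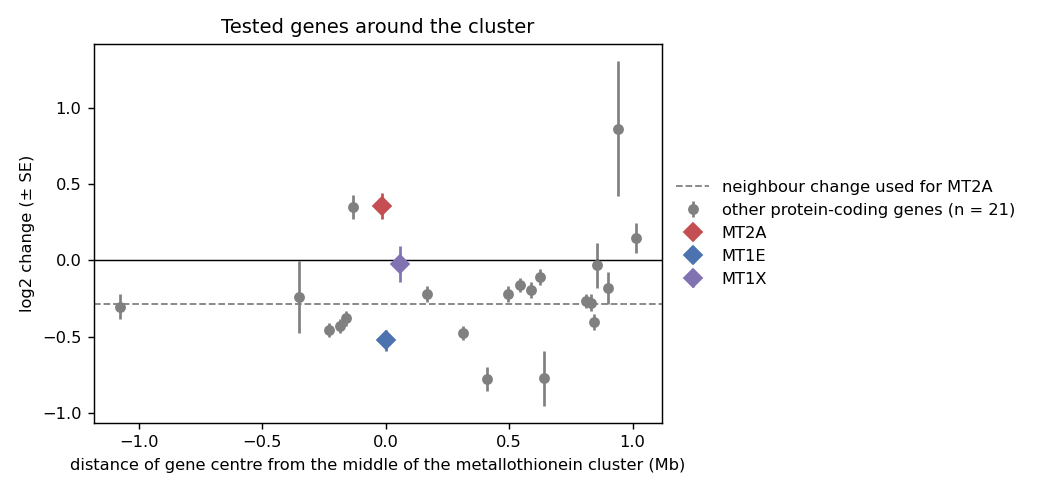
Log2 change (knockout minus wild-type, ± SE) of protein-coding genes by the distance of their centre from the middle of the metallothionein cluster in Mb. Grey points are the 21 other genes, diamonds are MT2A, MT1E and MT1X, and the dashed line is the neighbour change of -0.29 used for MT2A. MT1E lies below most of the grey points and MT2A above all but 1 of them.

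Each member was therefore also measured relative to the median of the 20 nearest tested protein-coding genes on each side (limma on log2 CPM, in which 44.3% of genes passed, 23.0% higher and 21.3% lower). The neighbours of MT2A, MT1E and MT1X changed by -0.29, -0.28 and -0.28. Relative to them MT2A rose by 0.65 (SE 0.07, adjusted p = 1.25e-06), MT1E fell by 0.25 (SE 0.06, adjusted p = 0.00197), and MT1X rose by 0.26 (SE 0.09, adjusted p = 0.0362). MTF1 stood at 0.13 (adjusted p = 0.092) and SLC30A1 at 0.12 (adjusted p = 0.307). The opposite directions of MT2A and MT1E held on both measures, while the call of MT1X did not. The part of the surroundings in the change of each metallothionein was not tested beyond this.

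**Figure D4:**
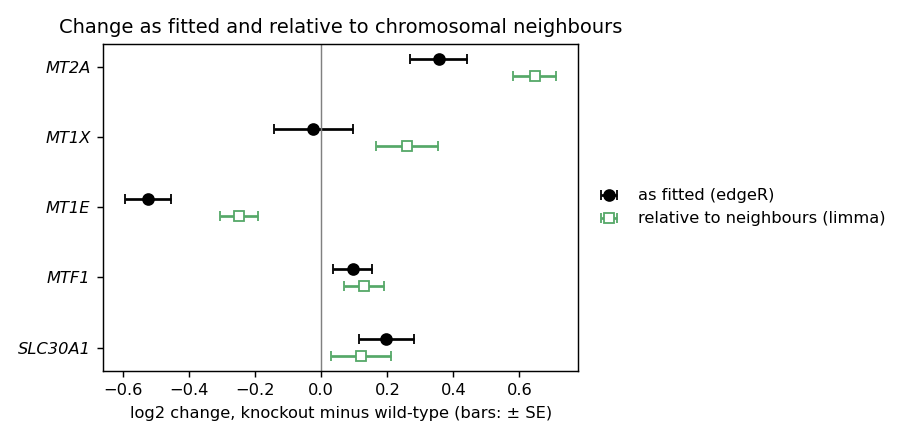
Log2 change of the 5 tested members as fitted (filled circles, edgeR) and relative to chromosomal neighbours (open squares, limma), with bars for ± SE. The 3 metallothioneins move right by the fall of their neighbours, from 0.35 to 0.65 for MT2A, and MTF1 and SLC30A1 on chromosome 1 move little.

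Zinc transporter genes were examined as the rest of the pathway. Of 14 importers of the SLC39 family, 11 were tested, of which 0 rose, 5 fell and 6 did not pass. Of all genes tested 23.9% were higher and 23.6% lower. The median log2 change of the 11 importers was -0.18, against 0.00 over all genes tested. SLC39A8, which carries zinc and manganese, was at 56.9 ± 3.72 CPM in wild-type and at 35.0 ± 4.40 CPM in the knockout, a fall of 0.70 on the log2 scale (adjusted p = 1.05e-06). SLC39A4, the importer of dietary zinc, fell from 16.1 ± 0.292 to 10.4 ± 0.700 CPM and SLC39A13, of intracellular vesicles, from 85.2 ± 4.74 to 57.9 ± 3.07 CPM (n = 4 each). SLC39A6 and SLC39A10, which take up zinc at the cell surface, fell by 0.24 and 0.27 on the log2 scale, the latter also a gene that MTF-1 is known to repress. The call of SLC39A10 was lost with library totals alone (adjusted p = 0.0544). Relative to their neighbours the changes of SLC39A4 and SLC39A13 were -0.39 and -0.18, and that of SLC39A8 was 0.15 (adjusted p = 0.0281), the opposite direction.

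Of 10 exporters of the SLC30 family, 7 were tested, of which 1 rose, 1 fell and 5 did not pass, and with the replicate number as a block 2 rose and 2 fell. SLC30A4, a transporter of endosomes and other vesicles, rose from 14.0 ± 0.926 to 22.4 ± 1.33 CPM (n = 4 each, log2 change 0.68, adjusted p = 3.57e-08), with levels of 12.73 to 14.94 CPM in wild-type and 21.46 to 24.29 CPM in the knockout. SLC30A5, of the secretory pathway, fell from 88.1 ± 6.14 to 76.6 ± 3.07 CPM (adjusted p = 0.0028), while its difference from neighbouring genes was -0.05 (adjusted p = 0.394). SLC30A9 stood at 58.5 ± 3.59 and 54.0 ± 0.560 CPM (adjusted p = 0.0592, or 0.0299 with the block). The 5 of 11 importers and 2 of 7 exporters called stand beside 47.6% of all genes.

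**Figure D5:**
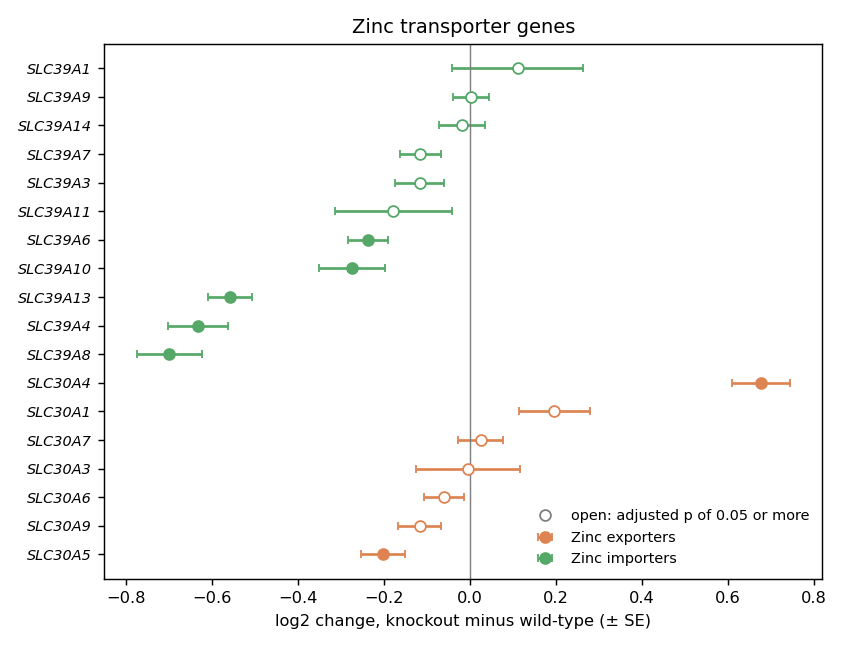
Log2 change (knockout minus wild-type, ± SE) of the 18 tested zinc transporter genes, exporters in orange and importers in green, with filled points for adjusted p below 0.05. The filled green points all lie to the left of 0, from -0.70 for SLC39A8 to -0.24 for SLC39A6, and SLC30A4 stands apart to the right at 0.68.

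Among 4 tested genes named as other targets of MTF-1, 1 rose, 1 fell and 2 did not pass, and 2 of 4 is near the 47.6% called among all genes. PGF, a growth factor of blood vessels, rose from 20.5 ± 0.640 to 30.3 ± 2.35 CPM (n = 4 each, log2 change 0.57, adjusted p = 1.37e-07), and SLC39A10 fell as described. GCLC, the catalytic subunit of glutathione synthesis, stood at 45.5 ± 3.70 and 43.3 ± 1.19 CPM (adjusted p = 0.31).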

How the data were processed

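RNA-seq counts of 4 wild-type and 4 knockout samples were compared. The deposited counts are whole numbers of reads per Ensembl gene. Per the submitters' processing notes, the build was hg38 and the tools were DESeq2 1.23.10, FastQC 0.11.7, Subread 1.6.2 with featureCounts, and STAR 2.6.0c, without parameters. Per the labels' protocols, ribosomal RNA was removed and the library kit keeps strand. A second deposited table holds variance-stabilized values on a log2 scale. Multi-mapping, strand setting and annotation release are not given in the sources used here. The pseudogene EEF1A1P5 had 99.7% as many counts as EEF1A1, so reads of near-identical copies may have been counted at each.

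Symbols were found for 60333 of 60646 identifiers, and 58400 matched GENCODE 29 (GRCh38, the same build as hg38) for coordinates and exon lengths. RefSeq promoter windows were matched by symbol for MT2A, MT1X, MTF1 and SLC30A1, 4 of the 9 members. The members and lists were chosen with earlier results of these data known. The genes named are the members, DOT1L, the metallothionein family, the 3 genes with the smallest adjusted p of each list, the 3 nearest coding genes on each side of the cluster and the 3 around it with the smallest adjusted p, and the 5 genes most like MT2A and MT1E, except 1 gene around the cluster that is not reported here.

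Counts were fitted in R 4.3.3 with edgeR 4.0.16 (filterByExpr, trimmed-mean scaling, robust quasi-likelihood test, group as the single term, Benjamini-Hochberg over 19877 genes). Standard errors follow from the change and its F statistic. Log2 CPM used a prior count of 2. Alternatives were upper-quartile scaling, library totals, a filter of 10 counts, mean log2 CPM of at least 1, DESeq2 1.42.0, limma 3.58.1 on the deposited transformed values, the replicate number as a block, each sample left out, and, for the members, change relative to neighbours. Replicates of a group differed beyond sampling noise (chi-square per degree of freedom 3.41 to 18.4). Over 13212 genes, wild-type and knockout samples of one number deviated together (correlations of 0.376, 0.154, 0.153 and 0.391, all above 0.1). The replicate numbers were on that ground taken to pair samples, which rests on the data and not on a statement in the labels. The fit was tested on simulated counts of 19877 genes for this comparison. It recovered 91.0% of 67 genes altered 1.5-fold, 97.0% of 67 altered 2-fold and 98.5% of 66 altered 4-fold, with 4.02% of 199 calls false. Only these genes were altered, all above 1 CPM in wild-type, and no pairing was simulated. In the data 47.6% of genes were called, so these rates may not hold there. They do not cover the members with low counts or changes below 1.5-fold.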

Additional observations from a re-analysis of the deposited data

Results flagged for a closer look

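Single samples stood apart within their group of 4 for 7 of 42 genes, the members and other named genes, in the 80 groups whose values were not all equal, where chance gives about 1 in 20 groups. In each case the gap to the nearest other sample, as a share of the group's range, exceeded Dixon's 95% critical value. Wild-type replicate 3 was high for SLC39A8, at 62.4 CPM against 54.5 to 55.6 CPM in the other wild-type samples. It was also high for GCLC, at 51.0 CPM against 43.2 to 43.9 CPM. Wild-type replicate 5 was low for TFRC, the transferrin receptor, at 1030.0 CPM against 1123 to 1131 CPM. Knockout replicate 1 was high for CCS, the copper chaperone of superoxide dismutase, at 9.69 CPM against 9.39 to 9.43 CPM. Knockout replicate 5 was low for NCOA4, which delivers ferritin for breakdown, at 340.6 CPM against 354 to 357 CPM. Of the members, MT1A was high in wild-type replicate 3, at 0.211 CPM against 0.1001 to 0.1179 CPM, which stands for 10 counts against 4 or 5. MT1F had its only knockout counts, 2 of them or 0.0418 CPM, in knockout replicate 3. With 0 in all other knockout samples the gap equals the range whatever the count. The rate of 1 in 20 therefore does not apply to MT1F, and its flag says nothing further about that sample.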

How the results depend on the processing

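MT2A and MT1E kept their direction and their call in all 16 alternative fits, with log2 changes of 0.31 to 0.65 and of -0.58 to -0.25. DOT1L kept both in 15. Members called numbered 2 in the fit reported, beside 9458 genes called over all. They numbered 4 with upper-quartile scaling, with library totals alone, with the filter of 10 counts and with DESeq2, beside 48.9%, 48.5%, 38.0% and 33.3% of all genes. With each sample left out 2 to 3 members were called, beside 8464 to 9606 genes over all. The filter of 10 counts and DESeq2 test more genes, MT1A and MT1F included. The change of MT1X was positive with upper-quartile scaling (0.043), with library totals (0.041), with a minimum mean log2 CPM of 1 (0.006) and relative to neighbours (0.26), and ran from -0.10 to 0.08 with each sample left out (0.083 without wild-type replicate 3 and 0.063 without knockout replicate 5). MTF1 passed with upper-quartile scaling (0.161) and library totals (0.159). SLC30A1 passed with upper-quartile scaling (0.26), library totals (0.26), the minimum mean log2 CPM of 1 (0.23) and the replicate block (0.20), and ran from 0.13 to 0.28 with each sample left out. With the replicate number as a block 4 zinc exporters were called, against 2, and 3 members, against 2, and the block changed no other call among the members. Of all genes 52.7% passed under the block, against 47.6% in the fit reported. With library totals 1 of the other MTF-1 targets was called, against 2. Apart from the settings that test more genes, the cause was not tested. The summed metallothionein level kept its direction in 11 alternatives, at log2 ratios of 0.15 to 0.28. Over all genes 4759 were higher and 4699 lower, against 6021 and 3705 with upper-quartile scaling and 5898 and 3748 with library totals. Depth limits MT1A, MT1F, MT1G and MT1M, which had at most 10 counts in any library.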

Other observations

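Genes of related metal and stress pathways were also counted. Of 8 genes that respond to oxidants and heavy metals, 0 rose, 4 fell and 4 did not pass, beside 23.9% higher and 23.6% lower of all genes tested. With the replicate number as a block and with library totals alone 1 rose, beside 26.6% and 29.7% of all genes higher. Without wild-type replicate 3, 2 rose, beside 4959 genes higher over all, against 4759 in the fit reported. The gene that rose under the block was HMOX1, heme oxygenase, at 11.4 ± 3.43 and 15.9 ± 2.35 CPM (SD, n = 4 each, adjusted p = 1.4e-05 under the block and 0.117 without it in edgeR), named after its values were seen. Of the 4 that fell, SLC7A11, the cystine importer, went from 572 ± 86.5 to 161 ± 36.7 CPM, NQO1 from 417 ± 70.8 to 268 ± 9.43 CPM and TXNRD1 from 744 ± 145 to 483 ± 16.6 CPM (SD, n = 4 each). Of 7 heat shock genes that heavy metals can induce, 2 rose and 4 fell, among them HSPB1 (57.3 ± 2.23 to 38.1 ± 2.44 CPM) and HSPA1B (62.0 ± 4.16 to 50.7 ± 2.54 CPM), while BAG3 rose (136 ± 3.76 to 160 ± 5.67 CPM). HSPA1A and HSPA1B are near copies of each other, so their counts are uncertain. Of 7 tested glucocorticoid-responsive genes, 1 rose and 3 fell, with FKBP5 (91.2 ± 6.20 to 69.6 ± 0.967 CPM), the receptor gene NR3C1 (153 ± 8.17 to 133 ± 6.18 CPM) and KLF9 (5.07 ± 0.935 to 3.11 ± 0.772 CPM) among the latter.

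Of 11 genes of copper handling, 1 rose and 3 fell. The chaperone gene CCS fell from 13.9 ± 0.892 to 9.48 ± 0.142 CPM, SCO1, which helps to build cytochrome oxidase, from 90.1 ± 2.83 to 75.1 ± 2.67 CPM, and the chaperone gene ATOX1 rose from 42.1 ± 3.75 to 52.7 ± 2.26 CPM (SD, n = 4 each). Relative to its neighbours CCS stood at -0.06 (adjusted p = 0.502 in limma), against -0.56 as fitted. Of 10 genes of iron handling, 2 rose and 6 fell, with TFRC going from 1102 ± 47.9 to 790.0 ± 51.2 CPM, the importer gene SLC11A2 from 39.1 ± 1.28 to 31.4 ± 0.492 CPM and NCOA4 rising from 282 ± 18.9 to 352 ± 7.37 CPM. Among all genes tested 23.9% were higher and 23.6% lower.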
